A study of Mus musculus with 48 samples.

Results

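Alternative activation is the state that macrophages take under interleukin-4 (IL-4) or interleukin-13 (IL-13). A list of 10 gene symbols for this state was followed across the whole series. The 10 symbols were Arg1, Retnla, Chil3, Mrc1, Mgl2, Clec10a, Il4ra, Socs8, Tfec and Flt1, and members were the rows of the raw count table whose gene identifier maps to one of them. Rows were found for 9 of the 10, among 51789 gene rows in all, while Socs8 matched no row and no gene of the reference used. The symbols were chosen with earlier results of these data known, so their levels are a description first and the tests below run across all genes of the table. IL-4 and IL-13 bind receptors that share the IL-4 receptor alpha chain, encoded by Il4ra, and Janus kinases at the receptor then phosphorylate the transcription factor STAT6. STAT6 enters the nucleus, binds paired TTC and GAA motifs and switches on effector genes, among them the arginine-consuming enzyme arginase 1 and secreted and surface lectins. In the peritoneal cavity some of the same genes are also known from tumour-associated and inflammatory macrophages.

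The 48 libraries were 3′ mRNA libraries (QuantSeq FWD, which counts a tag near the end of each transcript) of mouse macrophages in 16 groups of 3. Ascites macrophages were F4/80-positive cells, taken with magnetic beads from peritoneal washes of mice of genotype B6(Cg)-Tyrc-2J/J that had carried ID8 ovarian tumour cells for 45 days. Thio macrophages were F4/80-positive peritoneal cells of wild-type C57BL/6 mice, taken 4 days after 1 ml of 3% thioglycolate, a sterile irritant that draws monocytes into the cavity. Bone marrow-derived macrophages (BMDM) came from wild-type B6 (WT) or p53 knockout B6 (KO) marrow, grown for 6 days in 10 ng/mL of the growth factor M-CSF. M0 cells received no further cytokine by the labels. M1 cells were given 100 ng/mL LPS and 50 ng/mL interferon-γ for 24 h, and M2 cells 10 ng/mL IL-4 and 10 ng/mL IL-13 for 24 h. Each of these 8 populations was then incubated for 4 h with 10 µM AP-3-84, known here by its code name only, or with DMSO as vehicle. The labels do not say whether the 3 replicates of a group came from separate mice or cultures, and p-values then measure only the spread between these samples.

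Each of the 12 peritoneal libraries held 15532373 to 19417581 counts, and each of the 36 BMDM libraries 3081707 to 4645148. The genotype field calls the KO libraries wild-type while titles, descriptions and the design text call them KO. Levels are in CPM, the counts divided by library size. Sizes were scaled by the trimmed mean of M-values, TMM, over all 48 libraries. The p53 target Cdkn1a held 33.7 to 306.0 CPM in the 18 KO libraries against 560.6 to 1129 CPM in the 18 WT BMDM libraries. Ccng1 and Phlda3 also lay apart, at most 44.9 and 1.29 CPM in KO and at least 75.5 and 9.03 CPM in WT BMDM. Trp53 itself overlapped, from 2.77 to 9.35 CPM in KO and from 4.73 to 13.4 CPM in WT BMDM. Mdm2 overlapped too, reaching 223.2 CPM in KO and starting at 147.2 CPM in WT BMDM. In the 12 M1 libraries the summed level of 12 classical activation genes ran from 1171 to 3742 CPM, against 138.3 to 876.3 CPM in the 12 M0 libraries, although Nos2 reached at most 18.2 CPM. In the 12 M2 libraries that sum ran from 210.1 to 2399 CPM and overlapped with M1. Median Irf1 and Gbp2 were 65.5 and 64.0 CPM in M1 and 120.7 and 73.5 CPM in M2. Cd40 also had a higher median in M2, and the other genes of the list had a higher median in M1. The sum of 8 macrophage genes was lower in the vehicle libraries of KO M2, at 18561, 9635 and 6025 CPM, than in those of WT M2, at 29330, 24900 and 31071 CPM. That sum was largely Lyz2, from 3119 to 24893 CPM in the 12 M2 libraries. Over all KO and all WT BMDM, median Lyz2 was 14654 against 33549 CPM, and Adgre1, Itgam and Cd14 were also lower in KO. Median Csf1r (2080 against 2010 CPM), Cd68 (787 against 792 CPM) and Mertk differed little, and Fcgr1 was higher in KO. Replicate 1 of WT M2 vehicle stood apart from its group: its summed level of 8 neutrophil genes was 3726 CPM against 551.0 and 420.8 CPM, and its classical activation sum was 2399 CPM against 1207 and 656.2 CPM. In KO M2 vehicle it was replicate 3 that carried a neutrophil sum of 3146 CPM, against 326.5 and 611.4 CPM. Where leaving one of these libraries out ended a call, turned a direction or moved a value by over 1.5 times, the value without it is given below. In bulk RNA, fewer cells of a type and less RNA per cell cannot be told apart.

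The tables of RefSeq promoters (GRCm38.p6, 250 bases before the start) held 7 of the 9 members, all but Arg1 and Clec10a. They were searched on both strands for TTCNNNNGAA, the spacing of 4 bases that STAT6 is known to prefer, and for TTCNNNGAA, the 3-base spacing that other STAT proteins bind. Both patterns read the same on either strand, and a match of one may overlap a match of the other. The wider pattern was found in Retnla and Tfec and the narrower in Chil3, while Flt1, Il4ra, Mgl2 and Mrc1 held neither. Among all 32851 promoters searched, 5.85% held TTCNNNNGAA and 7.02% held TTCNNNGAA. A match is a description of the letters and no evidence of binding. The 100 bases from 220 to 121 before the start are shown for the 3 members with a match and for Mgl2, a member without one that also rose with IL-4 and IL-13. Capitals mark the match.
Retnla, chr16:48842389-48842488, plus strand: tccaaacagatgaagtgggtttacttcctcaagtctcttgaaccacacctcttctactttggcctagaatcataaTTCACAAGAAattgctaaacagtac
Tfec, chr6:16898562-16898661, minus strand: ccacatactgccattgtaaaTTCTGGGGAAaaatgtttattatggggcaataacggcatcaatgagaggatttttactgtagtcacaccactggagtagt
Chil3, chr3:106167685-106167784, minus strand: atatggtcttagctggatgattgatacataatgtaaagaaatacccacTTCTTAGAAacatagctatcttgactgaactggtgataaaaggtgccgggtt
Mgl2, chr11:70130137-70130236, plus strand: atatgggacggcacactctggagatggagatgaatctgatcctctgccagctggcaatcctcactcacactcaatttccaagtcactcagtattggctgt

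With IL-4 and IL-13, 8 of the 9 members rose in wild-type cells (WT M2 minus WT M0, vehicle), where 12.7% of the 11779 genes tested rose. Arg1, Retnla, Chil3, Mrc1, Mgl2, Clec10a, Tfec and Flt1 were the 8, and Il4ra was the member not called. The median log2 fold change of the 9 was 5.56, against 0.01 over all genes tested. In KO cells the same contrast called all 9 members: 8 higher, where 20.1% of all genes were higher, and Il4ra lower, where 18.0% were lower, with a median of 5.34 against 0.02 over all genes. A call here is an adjusted p under 0.05 in edgeR's quasi-likelihood test with Benjamini-Hochberg adjustment over all genes. All 9 members passed the filter on low counts in both the BMDM and the peritoneal fit.

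**Figure D1:**
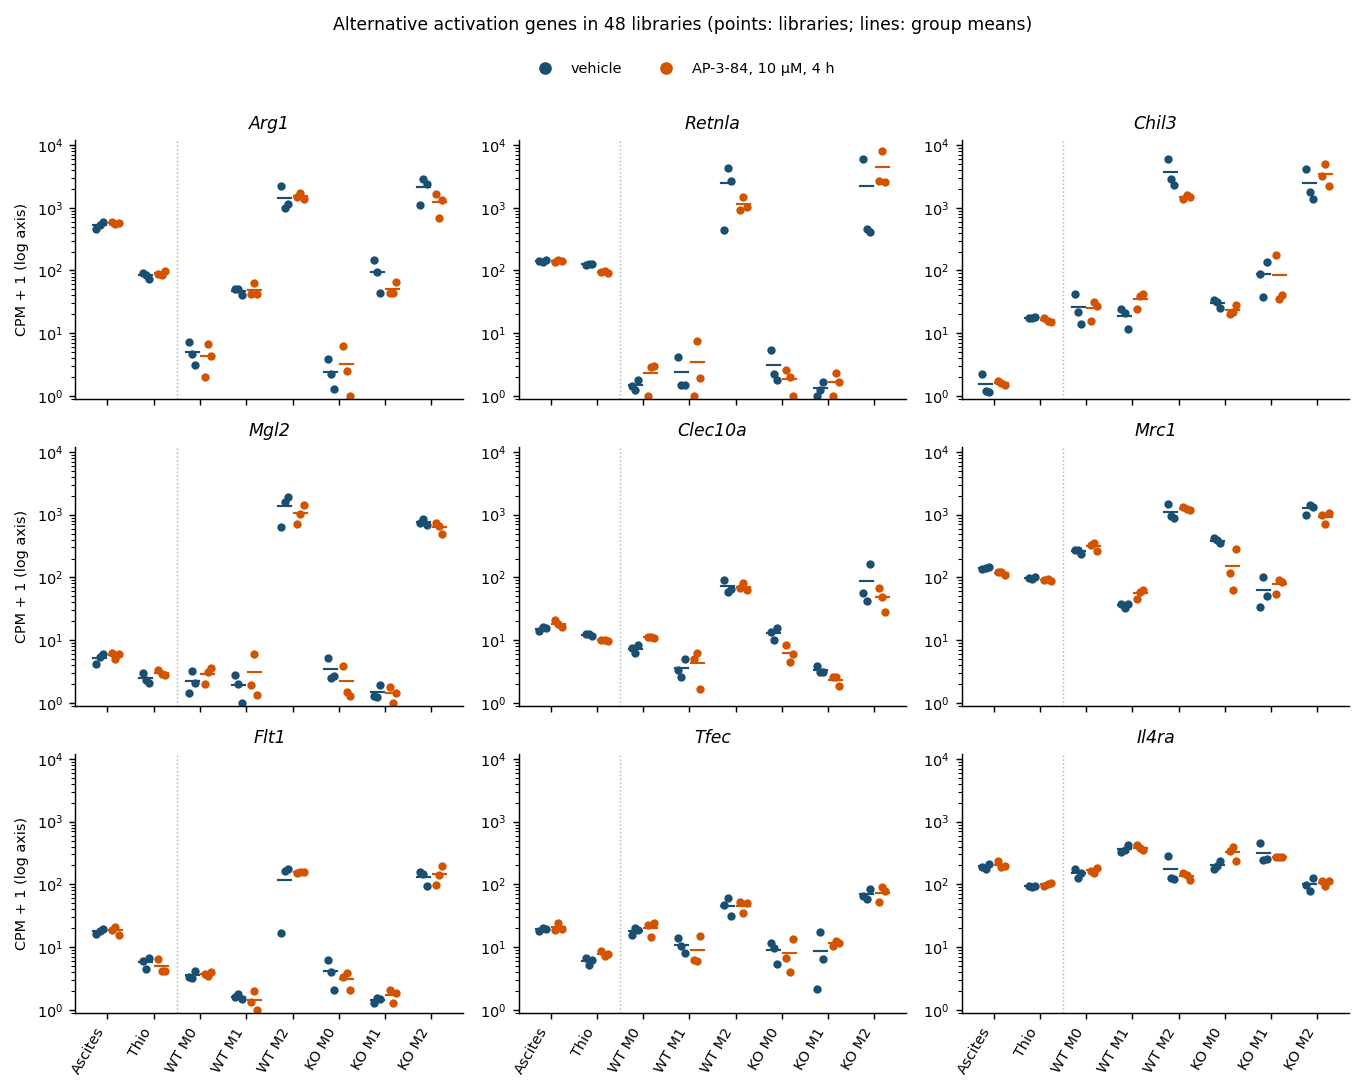
Level of each member, as CPM + 1 on a log axis, in the 8 populations, with 3 vehicle and 3 AP-3-84 libraries each. Points are libraries and short lines group means, and the dotted line separates peritoneal from bone marrow-derived cells. Retnla and Mgl2 were at least 409.3 and 496.7 CPM in the 12 M2 libraries and at most 6.47 and 4.98 CPM in the 24 M0 and M1 libraries, while Il4ra stayed between 78.4 and 449.9 CPM in all BMDM.

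Il4ra (ENSMUSG00000030748, GRCm38 chr7:125552120-125579474, plus strand) encodes the receptor chain itself. Its vehicle levels were 172.8, 124.8 and 150.2 CPM in WT M0 and 278.0, 123.2 and 119.7 CPM in WT M2. The other two WT M2 libraries lay below the lowest M0 library and replicate 1 lay above them all. The log2 fold change was 0.26 ± 0.25 (SE, n = 3 against 3; 95% interval -0.25 to 0.77; edgeR adjusted p = 0.484), and it was -0.28 without WT M2 vehicle replicate 1. KO M0 held 174.0, 196.9 and 231.7 CPM and KO M2 97.8, 78.4 and 127.4 CPM, without overlap. Il4ra fell there by 1.01 ± 0.25 on the log2 scale (n = 3 against 3; edgeR adjusted p = 0.00217). The difference between the genotypes in the IL-4 and IL-13 response was itself called for Il4ra, at -1.27 ± 0.35 (edgeR adjusted p = 0.0086), where 13.2% of all genes were called lower in that contrast. Without WT M2 vehicle replicate 1 its adjusted p was 0.059. Over the vehicle groups the order ran from WT M1 (369.0 ± 52.0 CPM, SD, n = 3) and KO M1 through KO M0, Ascites, WT M2, WT M0 and KO M2 to Thio (91.9 ± 2.9 CPM). From KO M0 downwards each group overlapped with the next in that order.

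Arg1 (ENSMUSG00000019987, chr10:24915221-24927484, minus strand) encodes arginase 1, which splits arginine into ornithine and urea. Its vehicle levels were 6.14, 3.64 and 2.09 CPM in WT M0 and 2188, 999.5 and 1143 CPM in WT M2, and 2.85, 1.21 and 0.274 CPM in KO M0 and 1107, 2883 and 2362 CPM in KO M2. Every M2 library was far above every M0 library. The log2 fold change was 8.52 ± 0.69 in WT (edgeR adjusted p = 1.73e-09) and 10.43 ± 0.77 in KO (edgeR adjusted p = 3.15e-10). The difference between the genotypes, 1.91 ± 1.02, was not called (edgeR adjusted p = 0.171). The KO fold was 11.42 without KO M0 vehicle replicate 1. Arg1 was also above its M0 level in the M1 state: the 12 M1 libraries held 39.7 to 144.5 CPM and the 12 M0 libraries at most 6.14 CPM.

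Retnla (ENSMUSG00000061100, chr16:48842551-48844461, plus strand) encodes RELMα, a secreted cysteine-rich protein of alternatively activated macrophages. Its levels were 0.455, 0.243 and 0.784 CPM in WT M0 vehicle and 445, 4283 and 2669 CPM in WT M2 vehicle, and in KO 4.40, 1.21 and 0.821 CPM against 5885, 465 and 409 CPM. The M2 vehicle libraries were all far above the M0 libraries but spread widely among themselves, from 409.3 to 5885 CPM. The log2 fold change was 12.24 ± 1.44 in WT (edgeR adjusted p = 8.12e-07) and 9.96 ± 1.25 in KO (edgeR adjusted p = 1.34e-06), both called under every alternative. The size was not firm: M0 libraries held few counts, and the KO fold was 7.58 without KO M2 vehicle replicate 1 and 11.05 without KO M0 vehicle replicate 1, the WT fold 11.59 without WT M2 vehicle replicate 2. In the 24 M0 and M1 libraries the highest Retnla level was 6.47 CPM. The M2 vehicle library of each genotype with the most Retnla, WT replicate 2 and KO replicate 1, was also the one with the least Arg1, 999.5 and 1107 CPM; this was seen in the values and not tested. The difference between the genotypes in the Retnla response, -2.28 ± 2.24, was not called (edgeR adjusted p = 0.481), and it was called at -4.65 without KO M2 vehicle replicate 1 (edgeR adjusted p = 0.0481).

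Chil3 (ENSMUSG00000040809, chr3:106147554-106167564, minus strand) encodes Ym1, a secreted chitinase-like lectin without enzyme activity. WT M0 vehicle held 41.2, 20.9 and 12.8 CPM and WT M2 vehicle 6039, 2891 and 2345 CPM, while KO M0 held 32.4, 30.9 and 23.8 CPM and KO M2 4138, 1778 and 1393 CPM. No library overlapped between the states. Chil3 rose by 7.27 ± 0.72 on the log2 scale in WT (edgeR adjusted p = 5.27e-08) and by 6.37 ± 0.69 in KO (edgeR adjusted p = 1.61e-07), the latter 5.74 without KO M2 vehicle replicate 1. Neutrophils and their precursors are also known to make Ym1, and the highest library, WT M2 vehicle replicate 1, was also the highest in neutrophil genes. Within KO M2 the highest Chil3 library, replicate 1, had the lowest neutrophil sum of the 3, 326.5 CPM. The part of other cells in these levels was not tested. Counts could also be shared with Chil4, since 23.9% of the 30-base stretches in the last 500 bases of Chil3 transcripts occur in Chil4.

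The surface lectins moved together but over very different ranges. Mrc1 (ENSMUSG00000026712, chr2:14229392-14332057, plus strand) encodes the mannose receptor CD206, and it was plentiful before any cytokine was given. It stood at 274.2, 272.3 and 234.0 CPM in WT M0 and 1470, 959.2 and 894.1 CPM in WT M2, and at 424.9, 387.0 and 347.2 CPM in KO M0 and 1003, 1443 and 1331 CPM in KO M2. Every M2 library was above every M0 library. The log2 fold change was 2.13 ± 0.37 in WT (edgeR adjusted p = 0.000107) and 1.68 ± 0.36 in KO (edgeR adjusted p = 0.000673).

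Mgl2 (ENSMUSG00000040950, chr11:70130329-70137550, plus strand) and its neighbour Clec10a (ENSMUSG00000000318, chr11:70156197-70170834, plus strand) encode the galactose-type lectins CD301b and CD301a. Mgl2 went from 0.455, 2.19 and 1.05 CPM in WT M0 to 626, 1571 and 1932 CPM in WT M2, and from 4.14, 1.52 and 1.64 CPM in KO M0 to 741.5, 853.1 and 690.9 CPM in KO M2. Clec10a went from 6.37, 5.34 and 7.31 CPM to 90.2, 58.3 and 64.5 CPM in WT, and from 12.7, 9.10 and 14.5 CPM to 54.9, 40.6 and 162.5 CPM in KO. Mgl2 was thus near background without IL-4 and IL-13 while Clec10a had a low basal level. The log2 fold changes of Mgl2 were 10.13 ± 0.66 in WT (edgeR adjusted p = 2.48e-11) and 8.22 ± 0.60 in KO (edgeR adjusted p = 1.87e-10). Those of Clec10a were 3.52 ± 0.44 in WT (edgeR adjusted p = 6.33e-07) and 2.80 ± 0.41 in KO (edgeR adjusted p = 5.14e-06), the latter 1.95 without KO M2 vehicle replicate 3. For Mgl2 the fold was 10.83 in WT without WT M0 vehicle replicate 2 and 8.85 in KO without KO M0 vehicle replicate 1. These paralogues share sequence, with 15.5% of the 30-base stretches in the last 500 bases of Mgl2 transcripts found in Clec10a and 22.3% the other way, so that an assignment of some tags to the wrong paralogue cannot be told apart from low expression.

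Tfec (ENSMUSG00000029553, chr6:16833373-16898441, minus strand) encodes a macrophage transcription factor of the MiT/TFE family. Its levels were 14.6, 19.4 and 17.8 CPM in WT M0 and 45.1, 58.9 and 29.9 CPM in WT M2, against 10.6, 8.80 and 4.38 CPM in KO M0 and 64.5, 57.9 and 83.6 CPM in KO M2. The states did not overlap in either genotype. Tfec rose by 1.41 ± 0.47 on the log2 scale in WT (edgeR adjusted p = 0.0282) and by 3.08 ± 0.51 in KO (edgeR adjusted p = 2.88e-05). The WT call was lost under total-count scaling, without any WT M0 vehicle library and without replicate 1 or 2 of WT M2 vehicle, where the adjusted p reached 0.111. The difference between the genotypes in this response, 1.67 ± 0.68, was not called (edgeR adjusted p = 0.0673), but it was called in the fit of the compared groups alone and in that of all 48 libraries.

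Flt1 (ENSMUSG00000029648, chr5:147561604-147726011, minus strand) encodes VEGF receptor 1, best known from endothelium and also a receptor of monocytes and macrophages. It stood at 2.27, 2.19 and 3.13 CPM in WT M0 and 15.8, 162.8 and 176.0 CPM in WT M2, and at 5.18, 3.03 and 1.09 CPM in KO M0 and 155.4, 144.8 and 92.6 CPM in KO M2. All 6 M2 libraries were above all 6 M0 libraries, with WT M2 replicate 1 far below the other 5. Flt1 rose by 5.56 ± 0.60 on the log2 scale in WT (edgeR adjusted p = 1.49e-07) and by 5.34 ± 0.59 in KO (edgeR adjusted p = 1.47e-07), the latter 5.96 without KO M0 vehicle replicate 1. Of 6 endothelial genes, Tek and Emcn were at 0 in all 12 M2 libraries, and Vwf ran there from 20.5 to 148.6 CPM. Their summed level was 100.8 to 176.0 CPM in M2 and 16.9 to 46.9 CPM in M0 libraries, and its part in the Flt1 level was not tested.

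**Figure D2:**
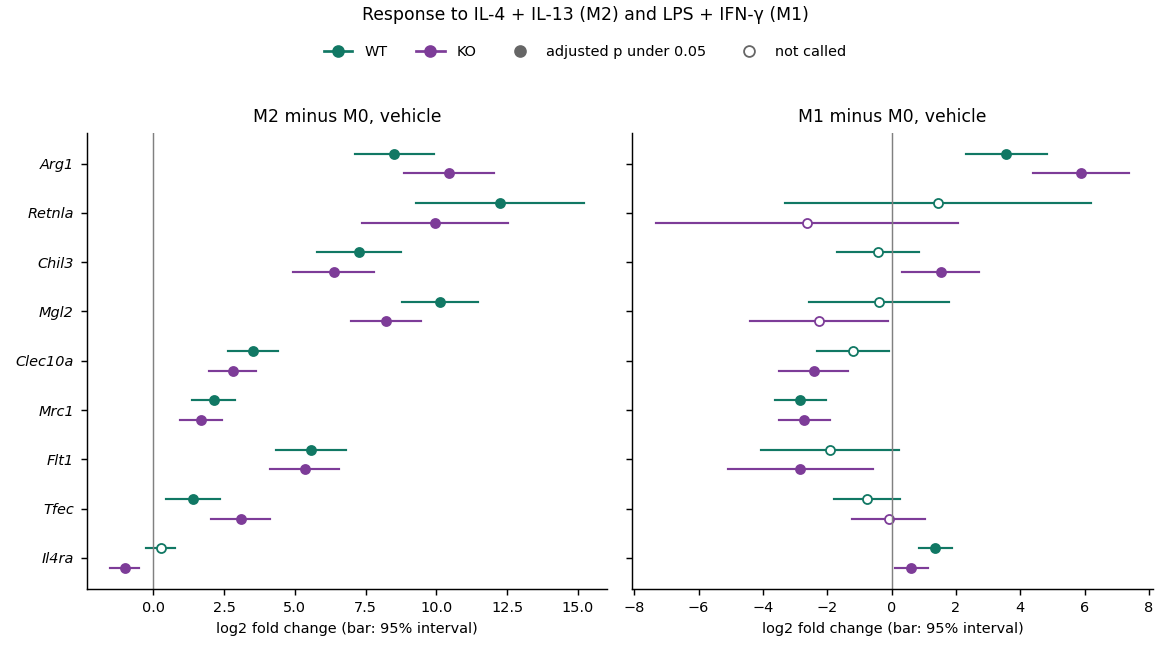
log2 fold change of each member from M0 to M2 (left) and from M0 to M1 (right) in vehicle libraries, with its 95% interval, in WT and KO cells. Filled points passed an adjusted p of 0.05. In the M2 panel every member but Il4ra lies to the right of 0 in both genotypes, and in the M1 panel the members part ways.

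Without IL-4 and IL-13, LPS and interferon-γ split the members. In WT M1 against WT M0, Arg1 and Il4ra rose, where 8.01% of genes rose, and Mrc1 fell, where 7.49% fell; the other 6 were not called. Arg1 went up by 3.57 ± 0.62 on the log2 scale, to 48.9, 50.1 and 39.7 CPM (edgeR adjusted p = 0.000295). Il4ra went up by 1.36 ± 0.25, to 327.4, 352.4 and 427.4 CPM (edgeR adjusted p = 0.000367). Mrc1 fell by 2.84 ± 0.39, to 36.7, 31.8 and 36.5 CPM (edgeR adjusted p = 1.45e-05). For all 3 genes the M1 libraries did not overlap with the M0 libraries. The same held for Clec10a, Flt1 and Tfec, which were not called, so that lack of overlap did not set the called genes apart. Clec10a (-1.20 ± 0.55, edgeR adjusted p = 0.148), Flt1 (-1.92 ± 1.05, edgeR adjusted p = 0.238) and Tfec (-0.76 ± 0.50, edgeR adjusted p = 0.348) did not pass the test. Clec10a was called under total-count scaling and in the fit of the compared groups alone.

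In KO M1 against KO M0, Arg1, Chil3 and Il4ra rose, where 22.8% of genes rose, and Mrc1, Clec10a and Flt1 fell, where 21.8% fell. The Arg1 difference was 5.90 ± 0.72 (edgeR adjusted p = 6.55e-07), with KO M1 libraries at 144.5, 92.4 and 42.0 CPM, and it was 6.91 without KO M0 vehicle replicate 1. Mrc1 fell by 2.71 ± 0.38 (edgeR adjusted p = 3.15e-06) and Clec10a fell by 2.42 ± 0.53 (edgeR adjusted p = 0.00051). The calls of the others were weak. Chil3 (1.52 ± 0.59, edgeR adjusted p = 0.0374) was lost without any KO M0 vehicle replicate and without replicate 1 or 3 of KO M1 vehicle, with adjusted p up to 0.207. Flt1 (-2.83 ± 1.09, edgeR adjusted p = 0.0366) was lost without replicate 1 or 2 of KO M0 or any replicate of KO M1 vehicle, with adjusted p up to 0.182. Il4ra (0.61 ± 0.25, edgeR adjusted p = 0.0451) was lost under total-count scaling and without replicate 1 or 2 of KO M0 or replicate 1 of KO M1 vehicle, with adjusted p up to 0.394. Mgl2 (-2.26 ± 1.05, edgeR adjusted p = 0.0819) and Retnla (-2.63 ± 2.28) were at 4.40 CPM or less in both states, and DESeq2 called Mgl2.

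In peritoneal cells, which received neither cytokine in culture, Arg1 and Retnla were the members that stood far above M0 BMDM. Arg1 held 458.5, 523.4 and 580.6 CPM in Ascites vehicle and 90.2, 84.5 and 72.6 CPM in Thio vehicle, against at most 6.14 CPM in M0. Retnla held 141.2, 137.3 and 143.4 CPM in Ascites vehicle and 122.1, 123.5 and 126.1 CPM in Thio vehicle, against at most 4.40 CPM in M0. The mean Arg1 level in Ascites was 131.6 times that of WT M0, and the mean level in WT M2 was 2.77 times that of Ascites. For Retnla the WT M2 mean was 17.5 times that of Ascites and 19.9 times that of Thio. The peritoneal and BMDM libraries differ in origin, sorting, depth and preparation, which cannot be told apart, so these ratios are a description with no test.

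The other members lay nearer to M0 BMDM or below it. Il4ra had a mean of 192.1 CPM in Ascites vehicle, 1.29 times that of WT M0 and 1.11 times that of WT M2, and 91.9 CPM in Thio vehicle. Tfec held 17.3, 19.5 and 18.5 CPM in Ascites vehicle, a mean 1.07 times that of WT M0, and 5.59, 4.12 and 5.17 CPM in Thio vehicle. Mgl2 stayed between 1.09 and 5.21 CPM in the 12 peritoneal libraries, and the WT M2 mean was 327.7 times that of Ascites vehicle and 939.3 times that of Thio vehicle. Chil3 held 1.26, 0.193 and 0.160 CPM in Ascites vehicle and 16.2, 16.6 and 17.1 CPM in Thio vehicle, so that Ascites lay below every M0 library (12.8 to 41.2 CPM). Mrc1 in Ascites and Thio vehicle (136.7 to 144.5 and 92.4 to 100.3 CPM) lay between the M1 and the M0 vehicle groups, apart from KO M1, which overlapped with Thio. Clec10a was at 13.2, 15.3 and 14.4 CPM in Ascites and 11.3, 11.6 and 10.7 CPM in Thio, near the M0 levels. Flt1 in Ascites, at 15.3, 17.1 and 18.4 CPM, was above all 24 M0 and M1 libraries, and the lowest M2 library, 15.8 CPM, lay within its range.

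Between the peritoneal populations without compound, all 9 members were called: 8 higher in Ascites than in Thio, where 20.3% of 16955 genes were higher, and Chil3 lower, where 13.4% were lower. The median log2 difference of the 9 was 1.10, against 0.05 over all genes. Arg1 was 6.48-fold higher (log2 2.70 ± 0.09, edgeR adjusted p = 5.23e-13), Tfec 3.81-fold (1.93 ± 0.16, edgeR adjusted p = 2.63e-08) and Flt1 3.66-fold (1.87 ± 0.21, edgeR adjusted p = 1.54e-06). Il4ra was 2.15-fold higher, at 188.5, 177.3 and 210.5 CPM against 92.0, 89.0 and 94.7 CPM (edgeR adjusted p = 1.88e-08). Chil3 was 30.9-fold lower in Ascites (log2 -4.95 ± 0.43, edgeR adjusted p = 6.68e-07). That size rested on Ascites vehicle replicate 1, which held 22 Chil3 counts against 4 and 3 in the others, and it was -6.47 on the log2 scale without it. Mgl2 differed by 1.56 ± 0.30 (edgeR adjusted p = 0.000544) at levels of 4.97 CPM or less.

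The remaining members differed little between Ascites and Thio. Mrc1 was 1.51-fold (log2 0.59 ± 0.06, edgeR adjusted p = 6.82e-07) and Retnla 1.17-fold higher (0.22 ± 0.06, edgeR adjusted p = 0.00556), and both calls were lost in a fit of all 48 libraries, with adjusted p of 0.211 and 0.918. Clec10a, 1.31-fold higher (0.39 ± 0.13, edgeR adjusted p = 0.0255), was lost in 8 of 13 alternatives, among them DESeq2 and leaving out Ascites vehicle replicate 2 or 3 or Thio vehicle replicate 1 or 3. The sum of 8 epithelial, mesothelial or ID8 tumour genes ran from 206.6 to 256.4 CPM in the 6 Ascites libraries and from 2.67 to 4.64 CPM in the 6 Thio libraries. The part of those cells in the member levels was not tested. The sum of 8 eosinophil, basophil or mast cell genes ran from 3.27 to 4.39 CPM in Ascites and from 5.60 to 10.9 CPM in Thio libraries, with Epx and Fcer1a at 0 in all 12. The sum of 8 dendritic cell genes ran from 19.0 to 37.4 CPM in the 12 peritoneal libraries and from 0.0 to 12.6 CPM in the 36 BMDM libraries. Of that list, Xcr1 ran from 13.2 to 32.2 CPM in peritoneal libraries and reached 1.04 CPM in BMDM. In WT M2 vehicle the sum was 7.61 to 12.6 CPM with Xcr1 at 0. The part of dendritic cells in the member levels was not tested.

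In M0 cells 0 of 9 members were called between KO and WT in the edgeR fit of all 36 BMDM libraries, where 33.2% of all genes were called. At an unadjusted p under 0.05 there were 2 members, and DESeq2 called 0, counts given without their share of all genes. The differences ran from -1.39 for Arg1 (± 0.91, edgeR adjusted p = 0.251) to 2.14 for Retnla, at levels of a few CPM. Among the more abundant members, Mrc1 was 0.60 ± 0.36 (95% interval -0.13 to 1.33, edgeR adjusted p = 0.196) and Il4ra 0.46 ± 0.25 (edgeR adjusted p = 0.158). Tfec was -1.08 ± 0.52 (edgeR adjusted p = 0.109). In the edgeR fit of these 2 groups alone 4 members were called, a count given without its share of all genes. Mrc1 (edgeR adjusted p = 0.00303), Clec10a (edgeR adjusted p = 0.0253) and Il4ra (edgeR adjusted p = 0.0318) were higher in KO there. Tfec was lower (edgeR adjusted p = 0.0147). Mrc1 ran from 347.2 to 424.9 CPM in KO M0 vehicle and from 234.0 to 274.2 CPM in WT M0 vehicle.

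In M2 cells the members were again not called between genotypes: 0 of 9 by edgeR, where 3.56% of genes were called. Without a share of all genes for either count, 2 had an unadjusted p under 0.05 and 1 was called by DESeq2. That gene was Il4ra, lower in KO by 0.82 ± 0.25 on the log2 scale (95% interval -1.33 to -0.30; edgeR adjusted p = 0.0639). It was also called in the fit of all 48 libraries and without replicate 2 or 3 of WT M2 vehicle, while without replicate 1 the difference was -0.29. Mgl2 was lower by 0.88 ± 0.40 (95% interval -1.70 to -0.06; edgeR adjusted p = 0.224). The intervals of the other 7 all included 0 and reached as wide as -1.76 to 1.47 for Retnla, which was called at -2.52 without KO M2 vehicle replicate 1 (edgeR adjusted p = 0.0369). In M1 cells, Chil3 was called, where 5.93% of genes were higher in KO: 85.5, 36.6 and 137.2 CPM in KO against 23.0, 20.3 and 10.7 CPM in WT (log2 2.19 ± 0.61, edgeR adjusted p = 0.0204). This call was lost without replicate 1 or 3 of KO M1 vehicle or without any WT M1 vehicle replicate, with adjusted p up to 0.124. The neutrophil sum in those libraries was 1699, 993.7 and 2504 CPM in KO and 464.3, 544.0 and 424.2 CPM in WT, with the KO replicates in the same order as for Chil3, and its part was not tested.

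Over the 8 populations and 9 members, 2 differences between AP-3-84 and vehicle at 4 h were called. By population, the share of all genes called ran from 0.0% in KO M1 to 12.1% higher and 8.57% lower in KO M0. The low count is therefore not particular to the members. In Thio cells Retnla was the member called, where 1.82% of genes were lower: it held 93.9, 96.8 and 91.5 CPM with AP-3-84 against 122.1, 123.5 and 126.1 CPM with vehicle. Retnla thus fell by 0.39 ± 0.06 on the log2 scale (edgeR adjusted p = 0.000535), with no overlap and a spread of a few CPM within each group. That call was kept under every alternative but the fit of all 48 libraries, whose adjusted p was 1.0. In Ascites cells Retnla stood at 135.4, 143.9 and 142.5 CPM with AP-3-84 against 141.2, 137.3 and 143.4 CPM, without a call (0.02 ± 0.06). The difference between both responses, 0.41 ± 0.08, was not called by edgeR (adjusted p = 0.0737) and was called by DESeq2.

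In KO M0 cells Mrc1 was the member called, where 8.57% of genes were lower. It held 114.7, 62.4 and 279.7 CPM with AP-3-84 against 424.9, 387.0 and 347.2 CPM with vehicle, a fall by 1.36 ± 0.36 on the log2 scale (edgeR adjusted p = 0.00852). All 3 treated libraries were below the vehicle libraries, with a wide spread among them, and the call was lost without AP-3-84 replicate 1 or 2 and in the fit of these 2 groups alone (adjusted p up to 0.147), while the difference was -2.16 without AP-3-84 replicate 3. The difference from the WT M0 response, -1.63 ± 0.51, was called (edgeR adjusted p = 0.0266), as was that of Clec10a, -1.88 ± 0.66 (edgeR adjusted p = 0.0478), where 6.99% of genes were called lower in that contrast. Neither call was firm: that of Mrc1 was lost in 8 and that of Clec10a in 10 of 19 alternatives, with edgeR adjusted p up to 0.0923 and 0.147, and single libraries of both genotypes were among them. The Mrc1 difference was -2.43 without KO M0 AP-3-84 replicate 3. In WT M0, Mrc1 (0.27 ± 0.35) and Clec10a (0.67 ± 0.46) were not called. Clec10a in KO M0 held 7.46, 3.55 and 5.02 CPM with AP-3-84 against 12.7, 9.10 and 14.5 CPM (-1.21 ± 0.47, edgeR adjusted p = 0.0668), and Il4ra held 339.9, 390.2 and 234.0 CPM against 174.0, 196.9 and 231.7 CPM (0.65 ± 0.25, edgeR adjusted p = 0.0618). Without AP-3-84 replicate 3 Il4ra was called, at 0.83. In the same libraries the classical activation sum was 799.5, 524.2 and 251.7 CPM with AP-3-84 and 138.3, 142.6 and 147.7 CPM with vehicle, highest in the treated replicates 1 and 2, and its part was not tested.

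In the M2 state the mean level of every member but Il4ra was highest. There edgeR called 0 of 9 in WT, where 1.21% of genes were called, and 0 of 9 in KO, where 0.0509% were called. In each genotype 1 member had an unadjusted p under 0.05, and DESeq2 called 0, counts given without their share of all genes. In WT M2 Chil3 held 1387, 1588 and 1456 CPM with AP-3-84 against 6039, 2891 and 2345 CPM with vehicle. The groups did not overlap, yet the log2 difference of -1.35 ± 0.55 (95% interval -2.47 to -0.22) did not pass (edgeR adjusted p = 0.299). It was -0.82 without WT M2 vehicle replicate 1. The neutrophil sum was also lower with AP-3-84, at 482.7, 382.6 and 188.2 CPM against 3726, 551.0 and 420.8 CPM, and its part was not tested. Retnla there held 909, 1468 and 1038 CPM against 445, 4283 and 2669 CPM (-1.10 ± 0.79, edgeR adjusted p = 0.657; -0.45 without WT M2 vehicle replicate 2), and Flt1 152.8, 158.7 and 158.4 CPM against 15.8, 162.8 and 176.0 CPM. Flt1 was 0.43 ± 0.44 with all libraries and -0.10 without WT M2 vehicle replicate 1. The classical activation sum was also lower with AP-3-84 in these libraries, at 222.1, 210.1 and 396.1 CPM, and its part was not tested.

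In KO M2 the same 2 secreted genes were on the other side of 0. Chil3 held 3208, 4918 and 2228 CPM with AP-3-84 against 4138, 1778 and 1393 CPM (0.51 ± 0.54, edgeR adjusted p = 0.746; 1.14 without KO M2 vehicle replicate 1). Retnla held 2675, 7960 and 2594 CPM against 5885, 465 and 409 CPM (0.97 ± 0.79, edgeR adjusted p = 0.658). It was called without KO M2 vehicle replicate 1, at 3.35. The differences between KO and WT in the response to AP-3-84, 1.85 ± 0.77 for Chil3 (edgeR adjusted p = 0.234) and 2.07 ± 1.12 for Retnla (edgeR adjusted p = 0.386), were not called. Without KO M2 vehicle replicate 1 that of Retnla was called, at 4.45. Arg1 in KO M2 held 1665, 694 and 1337 CPM against 1107, 2883 and 2362 CPM (-0.77 ± 0.47, edgeR adjusted p = 0.526). Clec10a there (-0.85 ± 0.37, edgeR adjusted p = 0.339) rested on KO M2 vehicle replicate 3, since without it the difference was 0.0002.

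**Figure D3:**
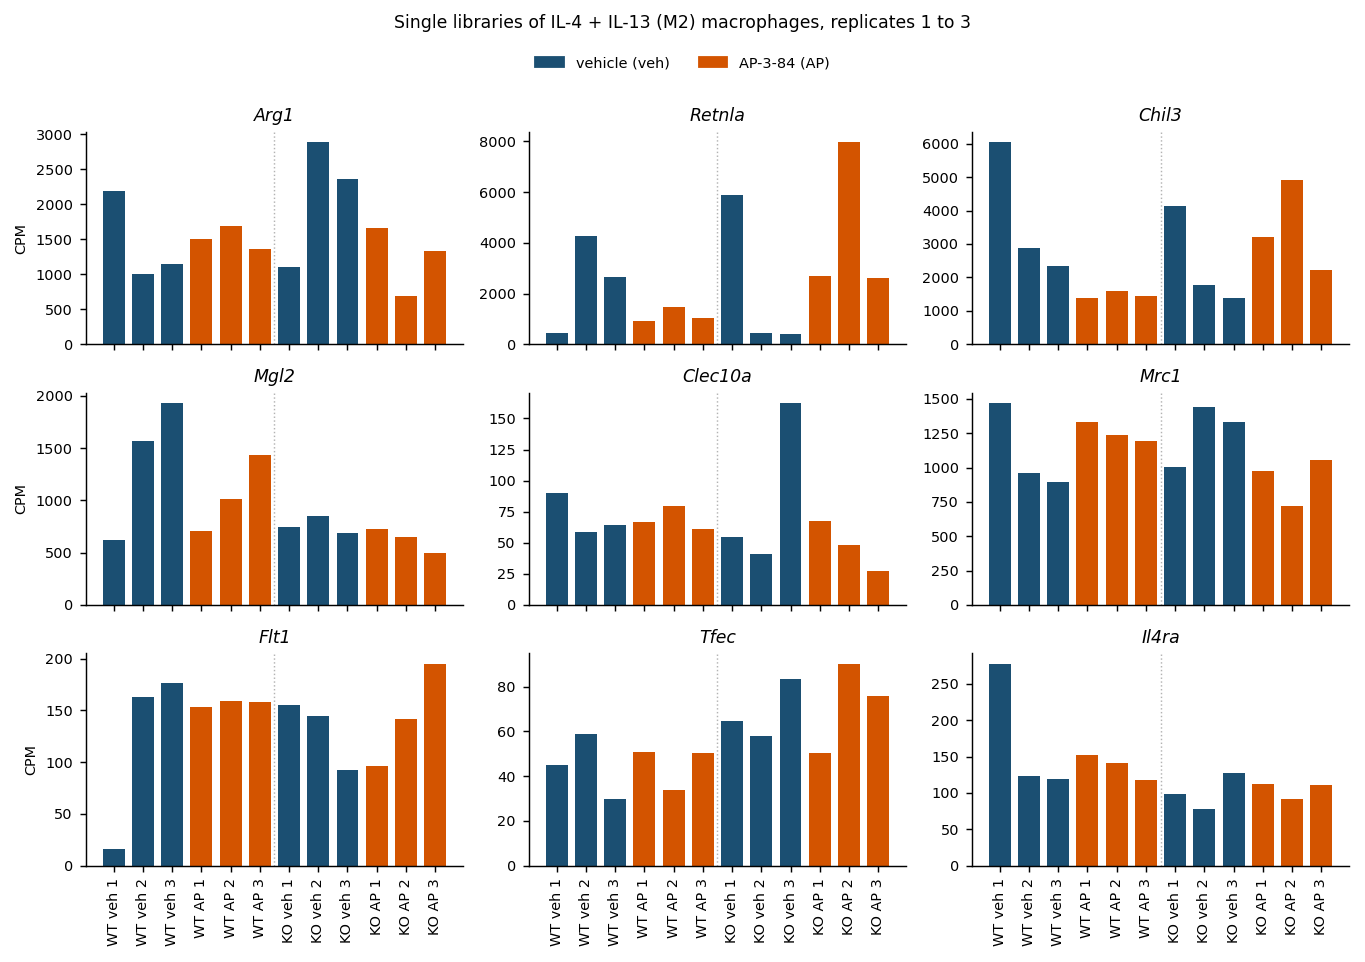
CPM of each member in the 12 single M2 libraries, WT on the left and KO on the right of the dotted line, bars from 0. Retnla and Flt1 of WT vehicle replicate 1 are low beside replicates 2 and 3 while its Arg1, Chil3 and Il4ra are high, and among the KO vehicle libraries Retnla is high in replicate 1 alone.

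In the other populations AP-3-84 left 0 of 9 members called by edgeR: Ascites, where 1.79% of genes were called, WT M0, where 0.144% were, WT M1, where 0.017% were, and KO M1, where 0.0% were. At an unadjusted p under 0.05 there were 2 members in Ascites and 0 in the 3 BMDM populations, and DESeq2 called 0 in all 4. These counts, too, are given without their share of all genes. Mrc1 in Ascites came nearest, with 123.1, 119.8 and 109.2 CPM against 136.7, 142.8 and 144.5 CPM (-0.25 ± 0.06, edgeR adjusted p = 0.0503), without overlap, and it was called under total-count scaling. Clec10a in Ascites held 19.8, 16.9 and 15.0 CPM against 13.2, 15.3 and 14.4 CPM (0.28 ± 0.13, edgeR adjusted p = 0.418). In Thio, Tfec held 7.73, 6.08 and 6.72 CPM against 5.59, 4.12 and 5.17 CPM (0.47 ± 0.16, edgeR adjusted p = 0.137) and Clec10a 9.21, 9.16 and 8.70 CPM against 11.3, 11.6 and 10.7 CPM (-0.31 ± 0.13, edgeR adjusted p = 0.254). Mrc1 in WT M1 held 44.7, 57.0 and 61.6 CPM against 36.7, 31.8 and 36.5 CPM (0.65 ± 0.38, edgeR adjusted p = 0.738).

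**Figure D4:**
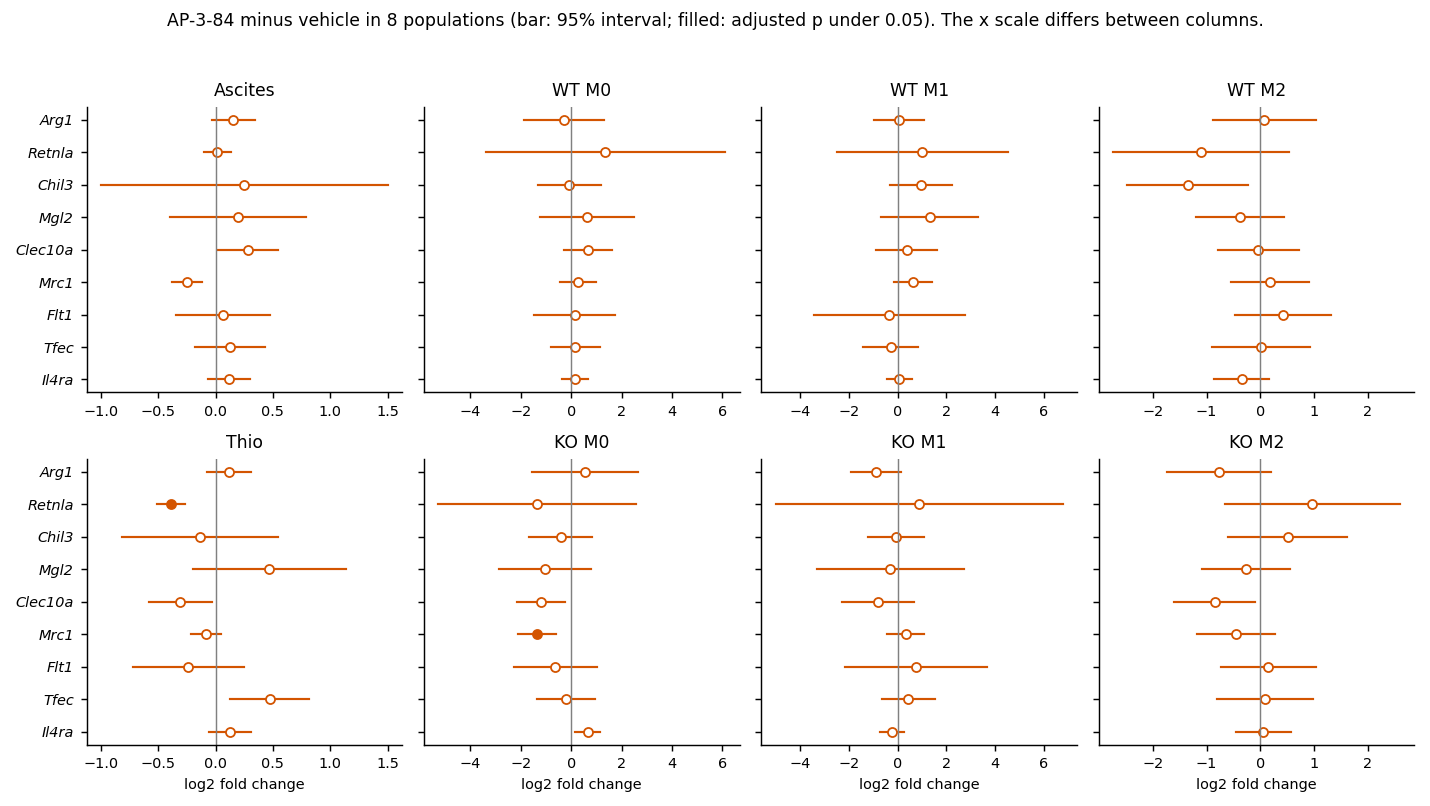
log2 fold change of each member with AP-3-84 against vehicle in the 8 populations, with its 95% interval and an x scale that differs between columns. The 2 filled points, Retnla in Thio and Mrc1 in KO M0, passed an adjusted p of 0.05. Intervals are narrow in the deeper peritoneal libraries and wide for members with few counts in M0 and M1.

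The IL-4 and IL-13 pathway around the members was followed in 57 further genes, of which 51 were tested in BMDM. In WT M2 against WT M0 36 of the 51 rose and 3 fell, with a median log2 fold change of 2.02, where 12.7% of all genes rose and 10.7% fell with a median of 0.01. In KO 33 rose and 7 fell, with a median of 1.88, where 20.1% of all genes rose and 18.0% fell with a median of 0.02. Without WT M2 vehicle replicate 1 the WT counts were 36 and 3, and without KO M2 vehicle replicate 3 the KO counts were 32 and 4. Of 14 genes of the receptor and JAK-STAT signalling, 8 rose and 1 fell in WT and 7 rose and 3 fell in KO. The feedback inhibitors Cish, Socs2 and Socs1 were among them: Cish rose by 7.00 ± 0.38 in WT and 6.39 ± 0.39 in KO, Socs2 by 5.91 ± 0.69 and 2.36 ± 0.48, and Socs1 by 3.66 ± 0.49 and 6.18 ± 0.65. Il4i1, which encodes a secreted amino acid oxidase, rose by 6.41 ± 0.95 in WT and 5.05 ± 0.95 in KO. Of 14 transcriptional regulators 9 rose and 1 fell in WT, and 9 rose and 3 fell in KO. Irf4, a regulator of alternative activation, rose by 6.88 ± 0.87 and 4.09 ± 0.66, and Egr2 by 5.84 ± 0.56 and 3.25 ± 0.47. Several of the KO folds were smaller without KO M2 vehicle replicate 1, with Socs2 at 1.64, Il4i1 at 3.50, Irf4 at 3.38 and Egr2 at 2.66, all still called. Myc was -2.49 ± 0.87 in WT and 2.61 ± 0.87 in KO, at group means of 2.44 CPM or less, and lost its call without WT M0 vehicle replicate 1 or 2 or WT M2 vehicle replicate 1 or 3 in WT, and without KO M0 vehicle replicate 2 or 3 or KO M2 vehicle replicate 3 in KO.

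Of 23 other target genes of the cytokines, 19 rose and 1 fell in WT, and 17 rose and 1 fell in KO. Rnase2a, an eosinophil-type ribonuclease, rose by 11.93 ± 0.93 in WT and 9.49 ± 0.80 in KO, and the chemokines Ccl24 by 9.76 ± 0.88 and 6.28 ± 0.66 and Ccl17 by 9.05 ± 1.43 and 6.77 ± 1.54. Without KO M2 vehicle replicate 1 the KO folds of Rnase2a and Ccl24 were 8.64 and 5.28. Ch25h was at 0 counts in KO M0 vehicle, and its level in KO M2 was at least 89.5-fold higher, against a floor of 3 counts over the M0 group. F13a1, coagulation factor XIII A, was the target that fell, by 3.28 ± 0.58 in WT and 5.53 ± 0.62 in KO (6.34 without KO M2 vehicle replicate 3). Among 11 relatives of the members tested, 2 rose and 0 fell in WT, and 3 rose and 3 fell in KO, read against the shares of all genes given above. Chil4 was at 0 counts in M0 and at least 54.3-fold higher in WT M2 and 51.9-fold in KO M2, and Arg2, the second arginase, rose by 2.14 ± 0.57 and 2.16 ± 0.58. The WT call of Arg2 was lost without WT M2 vehicle replicate 1, at 1.40 (edgeR adjusted p = 0.0903). Pla2r1, a relative of Mrc1, was the other that rose in KO (3.74 ± 1.44), and the growth factor Vegfa (-3.28 ± 0.54), the lectin Clec4n (-1.78 ± 0.59) and the VEGF co-receptor Nrp1 (-0.88 ± 0.29) fell there. Of these 4, Pla2r1, Clec4n and Nrp1 lost their call without KO M2 vehicle replicate 3, Pla2r1 also without KO M0 vehicle replicate 2 or 3 and Clec4n without KO M2 vehicle replicate 2. Each fold named here was called by edgeR, with adjusted p in WT from 2.15e-14 for Cish to 0.0348 for Myc.

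**Figure D5:**
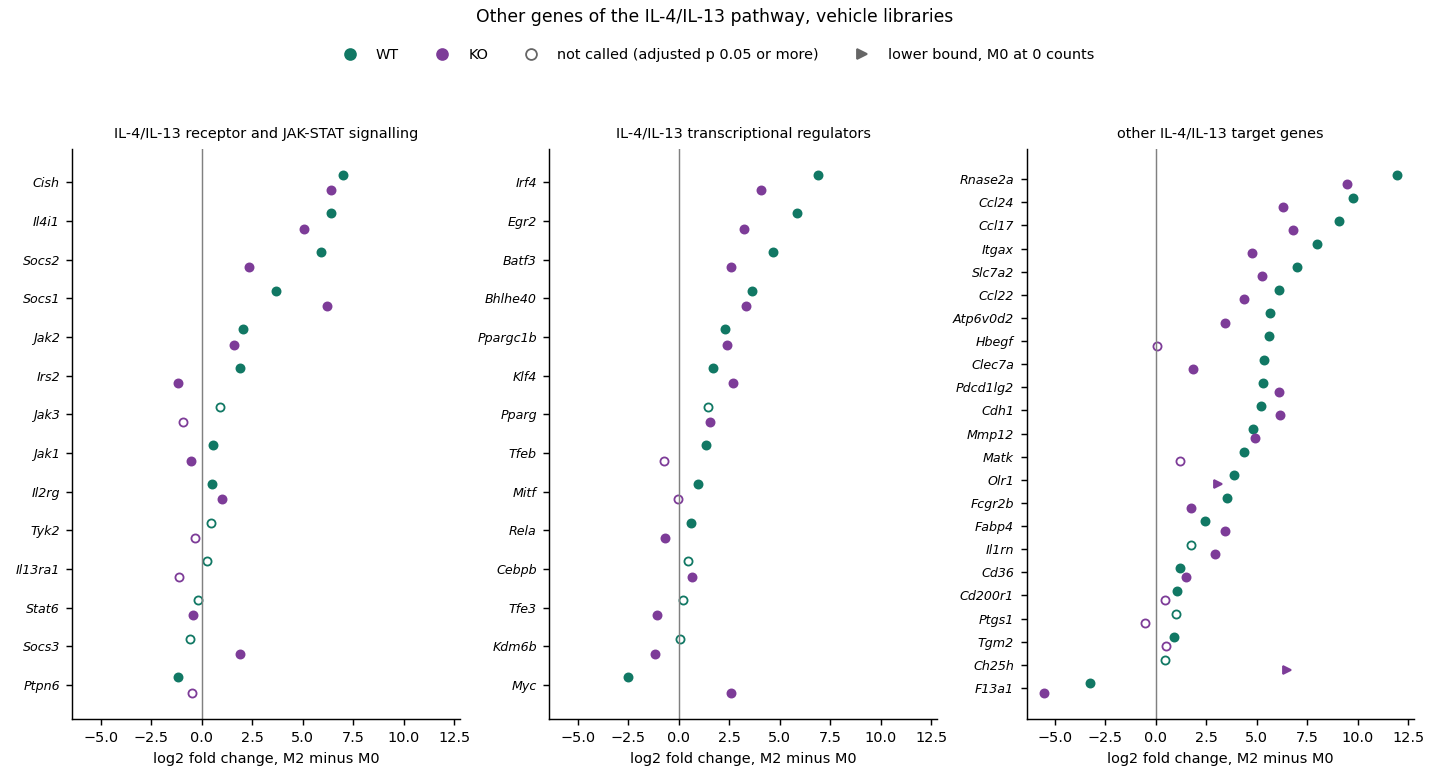
log2 fold change from M0 to M2 in vehicle libraries for the 51 further pathway genes tested, in 3 lists, WT and KO, ordered by the WT value. Open points were not called and triangles are lower bounds for genes at 0 counts in M0. Most genes of the target list lie to the right of 0 in both genotypes, with F13a1 to the left.

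With AP-3-84, 3 of the 51 were called in WT M2, all lower, where 1.21% of all genes were called, and 0 in KO M2, where 0.0509% were. Those 3 were the eosinophil chemokine Ccl24 (-2.90 ± 0.52, edgeR adjusted p = 0.00351), the kinase Jak2 (-0.86 ± 0.20, edgeR adjusted p = 0.0218) and the shared receptor chain Il2rg (-0.66 ± 0.17, edgeR adjusted p = 0.0399). Without WT M2 vehicle replicate 1 the calls of Jak2 and Il2rg were lost and that of Ccl24 was kept. Each of the 3 calls was also lost without WT M2 AP-3-84 replicate 1, those of Jak2 and Il2rg without its replicate 2, and that of Il2rg without its replicate 3 or WT M2 vehicle replicate 2. In Thio, 5 of 50 rose, where 2.51% of all genes rose, and 4 fell, where 1.82% fell, among them F13a1 (-1.02 ± 0.09, edgeR adjusted p = 4.3e-06) and Hbegf (1.18 ± 0.14, edgeR adjusted p = 7e-05). In Ascites 3 of 50 rose, where 1.69% of all genes rose, and 0 fell: Hbegf (0.88 ± 0.11), Klf4 (0.50 ± 0.10, lost without Ascites vehicle replicate 3) and Irs2 (0.38 ± 0.09, lost without any vehicle replicate and without AP-3-84 replicate 1 or 2). The calls of the 5 genes named in Thio and Ascites were lost in the fit of all 48 libraries. In KO M0, 5 of 51 rose and 6 fell, where 12.1% of all genes rose and 8.57% fell, so that the share of the lists was near that of all genes. Among them were Socs1 (2.77 ± 0.82) and Socs3 (2.58 ± 0.57), feedback inhibitors, and F13a1 (-2.35 ± 0.51). The call of Socs1 was lost without KO M0 vehicle replicate 2 or 3 or AP-3-84 replicate 1, and F13a1 was -3.47 without AP-3-84 replicate 3. Without compound, 20 of 51 were higher and 9 lower in KO than in WT M0, where 33.2% of all genes were called. The IL-4 and IL-13 response differed between the genotypes in 5 called higher and 17 called lower, where 13.2% of all genes were lower. The median of that difference was -1.06, against -0.03 over all genes. Without KO M2 vehicle replicate 3 the counts were 4 and 13. Between KO and WT in M2 cells 2 of 51 were called, near the 3.56% of all genes: Olr1 (-2.19 ± 0.58, edgeR adjusted p = 0.0293) and Tfe3 (-0.54 ± 0.15, edgeR adjusted p = 0.0348). Without KO M2 vehicle replicate 2 or 3 both calls were lost, and Olr1 was -1.12 and not called without WT M2 vehicle replicate 1, as was Tfe3 without WT M2 vehicle replicate 3.

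Genes whose mean level ran most like that of a member over the 16 groups were sought among 10074 genes that reached 10 CPM in at least 1 group, by Pearson's r of mean log2(CPM + 1). The 16 means share libraries, scaling and the M2 contrast, and r is given as a description. For Mgl2 the nearest were Cldn11 (r = 0.99), Rnase2a and Scn3a, and for Retnla Anxa4 (r = 0.98), Itgax and Ksr2. Flt1 ran most like Irf4 (r = 0.96) and its fellow member Clec10a, and Clec10a most like Flt1 (r = 0.96), Bod1 and Igf1. Arg1 ran most like Cd320 (r = 0.93), Slc7a2 and Tspan7, of which Slc7a2 encodes a cationic amino acid transporter that carries arginine. Chil3 had Qdpr, Pebp1 and Tceal9, Mrc1 had Gnb4, Igf1 and Hist1h1c, and Tfec had Cd44, Olfm1 and Cish as nearest, at r of 0.92 to 0.96. For Il4ra they were Cmtr1, Nmt1 and Zbtb7b, at r of 0.93 to 0.94.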

How the data were processed

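Gene-level raw counts of 48 libraries were used as deposited by the authors; they are whole numbers per gene with no normalization. Bowtie2, RSEM and DESeq2 are named in the submitters' processing notes, without roles or versions; the genome build was not given in the sources used here. Gene identifiers were matched to GENCODE vM21 (GRCm38). Members and gene lists were chosen with earlier results of these data known. Every member was named, the 3 most alike genes per member, and up to 4 called genes per pathway list and comparison. BMDM (36 libraries) and peritoneal cells (12) were fitted apart in edgeR 4.0.16 (R 4.3.3), with TMM scaling, filterByExpr by group, robust quasi-likelihood tests and Benjamini-Hochberg adjustment over all genes tested (11779 and 16955), for 16 comparisons between groups and 7 interactions. SE was derived from the fold change and F. On simulated counts, 70% of genes changed 2-fold were recovered in BMDM (11090 genes, WT M2 minus M0) and 69% in peritoneal cells (16350 genes, Thio AP-3-84 minus vehicle). The simulation gave all genes the same biological variation and changed only genes above a floor of counts. These shares therefore do not measure the power for members that vary more or hold few counts. Pooled coefficients of biological variation were 0.225 and 0.168. Alternatives were median-ratio size factors, total-count scaling, no filter, DESeq2 1.42.0, only the groups compared, all 48 libraries, a replicate block and leaving out each library. Replicate numbers correlated over 0.1 in every pair for WT M2 and M0 vehicle alone of 16 comparisons (r of 0.25, 0.24 and 0.35).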

Additional observations from a re-analysis of the deposited data

Results flagged for a closer look

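In 3 cases, member responses differed between the genotypes by an interaction test across all genes, and each call was lost without some single library. For Il4ra the response to IL-4 and IL-13 differed by -1.27 on the log2 scale (KO minus WT; 0.26 in WT and -1.01 in KO). In M0 cells the response of Mrc1 to AP-3-84 differed by -1.63 (0.27 in WT and -1.36 in KO), and that of Clec10a differed by -1.88 (0.67 in WT and -1.21 in KO). The Il4ra difference was -0.74 without WT M2 vehicle replicate 1, with an edgeR adjusted p of 0.059 against 0.0086 with it, and it stayed called in the other 18 alternatives. That of Mrc1 was lost in 8 of 19 alternatives, with edgeR adjusted p up to 0.0923: in the fit of the compared groups alone and without KO M0 AP-3-84 replicate 1 or 2, KO M0 vehicle replicate 1, WT M0 AP-3-84 replicate 1 or 2 or WT M0 vehicle replicate 1 or 3. That of Clec10a was lost in 10 of 19, with edgeR adjusted p up to 0.147: without any of the 6 WT M0 libraries, KO M0 AP-3-84 replicate 2 or 3 or KO M0 vehicle replicate 1 or 3. What single libraries hold that moves these values was not tested.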

How the results depend on the processing

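Of 41 called member values, 28 kept their call under every alternative, 13 lost it under at least 1 and 0 reversed. The share of all genes called under each alternative is not given here. The counts below therefore describe how calls depend on the fit and say nothing particular about the members. With no filter on low counts more members were called: 6 in WT M1 minus M0, 5, 3 and 3 between KO and WT in M0, M1 and M2, 1 with AP-3-84 in WT M1, 2 in WT M2, 3 in KO M0, 1 in KO M1 and 3 in KO M2. Without it the differences between responses called 6 members (M2 minus M0, KO minus WT), 1 and 3 (AP-3-84, KO minus WT, in M1 and M2), and 2 and 4 (AP-3-84, M2 minus M0, in WT and KO). The SE with AP-3-84 was then 0.18 for Arg1 and Retnla in KO M2 and for Chil3 in WT M2, smaller than with the filter. With only the groups compared the counts were 5 in WT M1 minus M0, 4 in M0 KO minus WT, 0 with AP-3-84 in KO M0, 2 in the M2 interaction and 1 in the AP-3-84 interaction in M0. DESeq2 called 1 in M2 KO minus WT, 2 with AP-3-84 in KO M0 and 1 in the difference between the AP-3-84 responses of Ascites and Thio. All 48 libraries in one fit called 1 in M2 KO minus WT, 0 with AP-3-84 in Thio, 3 in KO M0, 2 in the M2 interaction and 25 of the pathway genes between Ascites and Thio, against 40. Total-count scaling called 1 with AP-3-84 in Ascites. With the replicate block 2 were called with AP-3-84 in KO M0, against 1 without it, and the block moved no other count of members or pathway genes by over 1.5 times; same-numbered samples correlated between -0.48 and 0.57. In WT M2 minus M0, where the numbers may pair the samples, the block changed no member's call.

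Leaving out single libraries gave 3 to 5 members in KO M1 minus M0, 0 to 1 in M1 and in M2 KO minus WT, 0 to 2 with AP-3-84 in KO M0, 0 to 1 in KO M2, 0 to 2 in the M2 interaction and in the AP-3-84 interaction in M0, and 0 to 1 in those of AP-3-84 between KO and WT M2 and between KO M2 and M0. Directions of values not called turned for Clec10a with AP-3-84 in KO M2 (-1.20 to 0.0002 over the left-out libraries, highest without vehicle replicate 3), Flt1 with AP-3-84 in WT M2 (-0.10 to 0.82, lowest without vehicle replicate 1), Il4ra in WT M2 minus M0 (-0.28 to 0.48, lowest without the same library) Retnla in M2 KO minus WT (-2.52, without KO vehicle replicate 1, to 0.50, without WT vehicle replicate 2) and Retnla with AP-3-84 in Ascites (-0.0078 to 0.0302, and -0.0323 with total-count scaling and -0.0008 with all 48 libraries). The cause was not tested. Of 144 group levels, 12 moved by over 1 SD under at least 1 of the other scalings, by at most 1.14 times. Depth limits Retnla, Mgl2 and Flt1 in M0 and M1 cells, Arg1 in M0, Clec10a in M1, Tfec in KO M1 and Chil3 in Ascites, where some libraries held fewer than 10 counts.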
